A study of Mus musculus with 6 samples.

Results

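The genes described here encode the cytokine-binding chains for interleukin-7, interleukin-6, interleukin-4 and interleukin-21. They are Il7r, Il6ra, Il6st, Il4ra and Il21r, 5 of the 14098 genes in a single-cell count table of regulatory T (Treg) cells, chosen by name and followed across cell states and barcode sets. The cells were EGFP-positive Treg cells from the spleens of C57BL/6 mice aged 18 to 21 weeks, all of them given tamoxifen. The 3 cKO samples came from Bach2fl/fl Foxp3EGFP-Cre-ERT2 mice and the 3 WT samples from Bach2+/+ Foxp3EGFP-Cre-ERT2 mice, so that the reporter and the tamoxifen-inducible Cre, expressed from the Foxp3 locus, are common to both. The study asked how loss of Bach2, a transcriptional repressor, alters Treg cells. Each cell carries a barcode suffix from 1 to 6, and no label links a suffix to a genotype. For that reason cKO cells were not set against WT cells, and each value stands for the 6 barcode sets together or for 1 of them.

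Cytokine receptors of this group have no kinase of their own. Ligand binding brings the receptor chains together, and the JAK kinases bound to them phosphorylate STAT factors, which move to the nucleus. Il7r encodes the alpha chain of the IL-7 receptor, which pairs with the common gamma chain, the product of Il2rg, and keeps naive T cells alive. Low surface IL-7 receptor is a widely used mark of human Treg cells. Il6ra encodes the chain that binds IL-6, and Il6st encodes gp130, the signalling chain that IL-6 shares with several related cytokines. IL-6 opposes the induction of Treg cells and favours Th17 cells. Il4ra encodes the alpha chain for IL-4 and IL-13, and Il21r the chain for IL-21, which also pairs with the common gamma chain.

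In the mm10 build and GENCODE M21, all 5 genes are protein coding. Il7r (ENSMUSG00000003882.5) lies on the minus strand of chromosome 15, from 9505788 to 9530176, and Il6ra (ENSMUSG00000027947.11) on the minus strand of chromosome 3, from 89864059 to 89913196. Il6st (ENSMUSG00000021756.12) lies on the plus strand of chromosome 13, from 112464070 to 112510086. Il4ra (ENSMUSG00000030748.9) and Il21r (ENSMUSG00000030745.9) are neighbours on the plus strand of chromosome 7, at 125552120 to 125579474 and 125603429 to 125633570. The gap between them is 23954 bases and holds 0 annotated genes. The annotated antisense gene Gm42809 overlaps Il6ra and Gm44876 overlaps Il4ra. The strand setting of the authors' counting is not given in the sources used here, so UMIs of these 2 genes cannot be told apart from antisense UMIs in the overlaps.

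The windows of 30 bases below hold the motifs found in the 250 bases before the RefSeq start of each gene (GRCm38.p6, 5 of 5 genes matched). They are shown because these members diverge between the cell states described further on, and they come from the genes' own strand. Capitals mark the motif.
Il7r, ETS motif, chr15:9529907-9529936, minus strand, 49 bases before the start: cttttgctcagACTTCCTGtttctggcact
Il7r, STAT motif, chr15:9529999-9530028, minus strand, 142 bases before the start: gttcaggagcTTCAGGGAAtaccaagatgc
Il6ra, ETS motif, chr3:89913353-89913382, minus strand, 175 bases before the start: tggcgcggctgCAGGAAGTaaccccctccg
Il21r, forkhead motif, chr7:125603380-125603409, plus strand, 38 bases before the start: gggcggggcacTGTTTACcacatcccctcc
GENCODE places the Il7r windows within an intron of an Il7r transcript that starts further upstream, and those of Il6ra and Il21r upstream of the gene. The bases just after the RefSeq start were found near the start of 0 GENCODE transcripts for Il7r, against 1 for Il6ra and 1 for Il21r. The Il7r distances therefore hold for the RefSeq start only, which GENCODE does not share. Both strands were searched for ETS (CAGGAAGT or ACTTCCTG), AP-1 (TGANTCA), STAT (TTCNNNGAA), forkhead (TGTTTAC or GTAAACA) and TCF1/LEF1 (CTTTGAT or ATCAAAG). Of 32851 mouse promoters of the same length, 2.69% held the ETS letters, 6.75% AP-1, 7.02% STAT, 3.17% forkhead and 3.21% TCF1/LEF1. These matches describe letters, not bound sites. The AP-1 and TCF1/LEF1 letters occur in 0 of the 5 promoters, and those of Il6st and Il4ra hold none of the motifs searched.

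The table held 25389602 unique molecular identifiers (UMIs), each 1 captured RNA molecule, in 10685 cells with 507 to 22130 UMIs each. After filtering, 10551 cells counted as Treg cells, at a median of 2092 UMIs. The 6 barcode sets held 1641 to 1902 cells and 3998172 to 4786590 UMIs each. All 7 of 7 Treg markers were detected in them, with Ikzf2 at 1021.6 CPM (UMIs per 1000000), Cd3e at 740.5 and Foxp3 at 21.3. Left out were 96 cells with B cell markers, 29 with myeloid markers and 4 with over 5% erythroid UMIs. The summed B cell markers were at 47.5 CPM in the Treg cells (39.1 to 54.7 over the sets), and the summed myeloid markers at 16.3 (4.32 to 29.3). In all, 63 barcodes occurred in more than 1 set. Cells are not replicates and the sets have no group, so no p-value was computed. Intervals below are 95% intervals of the pooled counts and cover counting error only, and the spread over the sets stands beside them. As 1 molecule gives 1 UMI at its 3′ end, levels were not divided by transcript length.

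Il7r was the most abundant of the 5 genes in Treg cells, at 162 CPM (157 to 167). Its level was 132.7, 138.5, 158.9, 195.2, 177.5 and 174.1 CPM in sets 1 to 6. Il21r followed at 133 CPM (128 to 138), with 135.7, 125.0, 124.4, 122.9, 148.8 and 141.0 CPM in the same sets. The set ranges of these 2 genes overlap, and in set 1 Il21r stood above Il7r. Ranked among all 14098 genes, Il7r was number 705 and Il21r number 872. For comparison, Il2rg, the partner chain of both, was at 321 CPM.

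The remaining receptor genes were lower. Il6ra was at 56.7 CPM (53.8 to 59.7), with 62.0, 59.1, 59.4, 56.6, 47.6 and 54.4 CPM in sets 1 to 6. Il4ra was at 44.5 CPM (41.9 to 47.2), with 42.4, 45.6, 51.5, 46.0, 37.1 and 44.0 CPM. The ranges of Il6ra and Il4ra over the sets overlap, although Il6ra was above Il4ra within each of the 6 sets. Il6st was at 30.1 CPM (28.0 to 32.4), with 34.7, 36.3, 36.0, 18.6, 24.4 and 30.2 CPM, and its range lay below that of each other member. Il6st thus had the widest relative range, with set 4 at 18.6 and set 2 at 36.3 CPM, and Il7r was lowest in set 1 and highest in set 4.

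**Figure D1:**
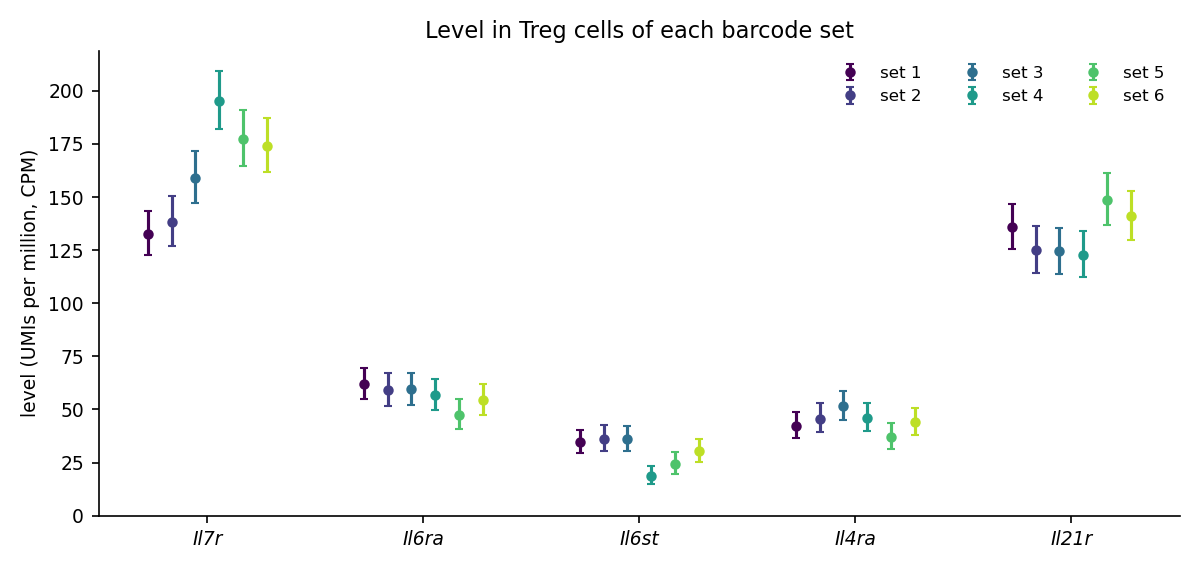
Level of each receptor gene (y axis, UMIs per 1000000) in the Treg cells of barcode sets 1 to 6, with 95% counting intervals. Il7r and Il21r lie between 122.9 and 195.2 CPM, Il6ra and Il4ra between 37.1 and 62.0, and Il6st between 18.6 and 36.3.

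Most cells that held one of these RNAs held a single molecule of it. Of the cells with an Il7r UMI, 74.6% had 1, and for Il6st 94.2% had 1. The highest count in a cell was 8 for Il7r, 7 for Il21r, 4 for Il6ra and Il4ra and 3 for Il6st. At a common depth of 1000 UMIs per cell, which 10246 Treg cells reached, 15.7% had an Il7r UMI (exact binomial interval 15.03 to 16.45%), 12.3% an Il21r UMI, 5.22% an Il6ra UMI, 4.61% an Il4ra UMI and 2.98% an Il6st UMI. Mature B cells do not normally express Il7r, and 2 of 93 thinned cells with B cell markers held it (2.15%, 0.262 to 7.55%). Without thinning the Il7r shares were 28.6% of Treg cells and 7.29% of B-marker cells, at median depths of 2092 and 2002.5 UMIs. B cells are known to express Il4ra and Il21r, so they give no background for these genes. A cell without a UMI of a receptor gene is not shown to lack it at this depth.

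The receptor genes differed most between clusters of Treg cells. Clusters were drawn without the 5 genes and without Bach2, and each is named here by its leading genes. The cells were clustered on RNA from the same droplets, so the cluster values are descriptions. A ratio is called higher or lower below when it reached 1.5-fold and had the same direction in 6 of 6 sets, with 0.5 UMIs added to each count of a set so that counts of 0 could be used. Where plain CPM gave another direction in a set, that is said beside the result.

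Il7r was highest in the S100a4 cluster (1919 cells), whose leading genes S100a4, Ccr2, S100a6, Gna15 and Il1rl1 include chemokine and IL-33 receptor genes of effector Treg cells. It was at 313, 303, 378, 329, 303 and 333 CPM there in sets 1 to 6. In the Igfbp4 cluster (2709 cells), with Igfbp4, Ly6c1, Satb1 and the homing receptor gene Ccr7 of resting T cells among its leading genes, it was at 73.2, 89.1, 87.5, 134, 114 and 122 CPM. No set of the S100a4 cluster overlapped any set of the Igfbp4 cluster. Pooled, the levels were 324 CPM (307 to 342) and 97.5 CPM (90.4 to 105), a log2 ratio of 1.73 (1.60 to 1.87) or 3.32-fold, and the ratio of single sets ran from 1.29 to 2.11. The median gene of this comparison was at 0.22, and relative to it Il7r was at 1.51. Among all 7049 genes with at least 100 UMIs over both clusters together, 9.68% were called higher and 1.83% lower.

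High Il7r was not shared by all clusters away from the Igfbp4 cluster. The Il1r2 cluster (1699 cells), with the T cell receptor response genes Tnfrsf9, Cd83 and Egr2 among its leading genes, had 100, 93.5, 142, 152, 120 and 136 CPM in sets 1 to 6. These values overlap those of the Igfbp4 cluster, and the log2 ratio was 0.35 (0.19 to 0.51), positive in 6 of 6 sets and under the 1.5-fold limit. Il7r in the S100a4 cluster exceeded the Il1r2 cluster by 1.38 on the log2 scale (1.24 to 1.52), with no overlap of sets. Among all 6755 genes of that comparison 6.35% were called higher and 7.43% lower. The Ccl5 cluster (576 cells, led by Ccl5, Cxcr6, Fgl2 and Klrg1) had 211 CPM (186 to 239), 1.12 above the Igfbp4 cluster on the log2 scale, with single sets from 129 to 315 CPM. Against the Il1r2 cluster the Ccl5 cluster was at 0.76, where 3.94% of genes were called higher and 5.15% lower, but clusters from 2 other seeds gave 0.57 and 0.51, under the limit. The Dnah7a cluster (3274 cells, with Rgs1, Izumo1r and Lrrc32) had 162 CPM and was also called higher, at 0.73 (0.59 to 0.87). The lowest level, 67.6 CPM (48.9 to 91.0), was in the Hist1h2ap cluster of 74 cells with cell cycle genes, which rests on 43 UMIs.

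**Figure D2:**
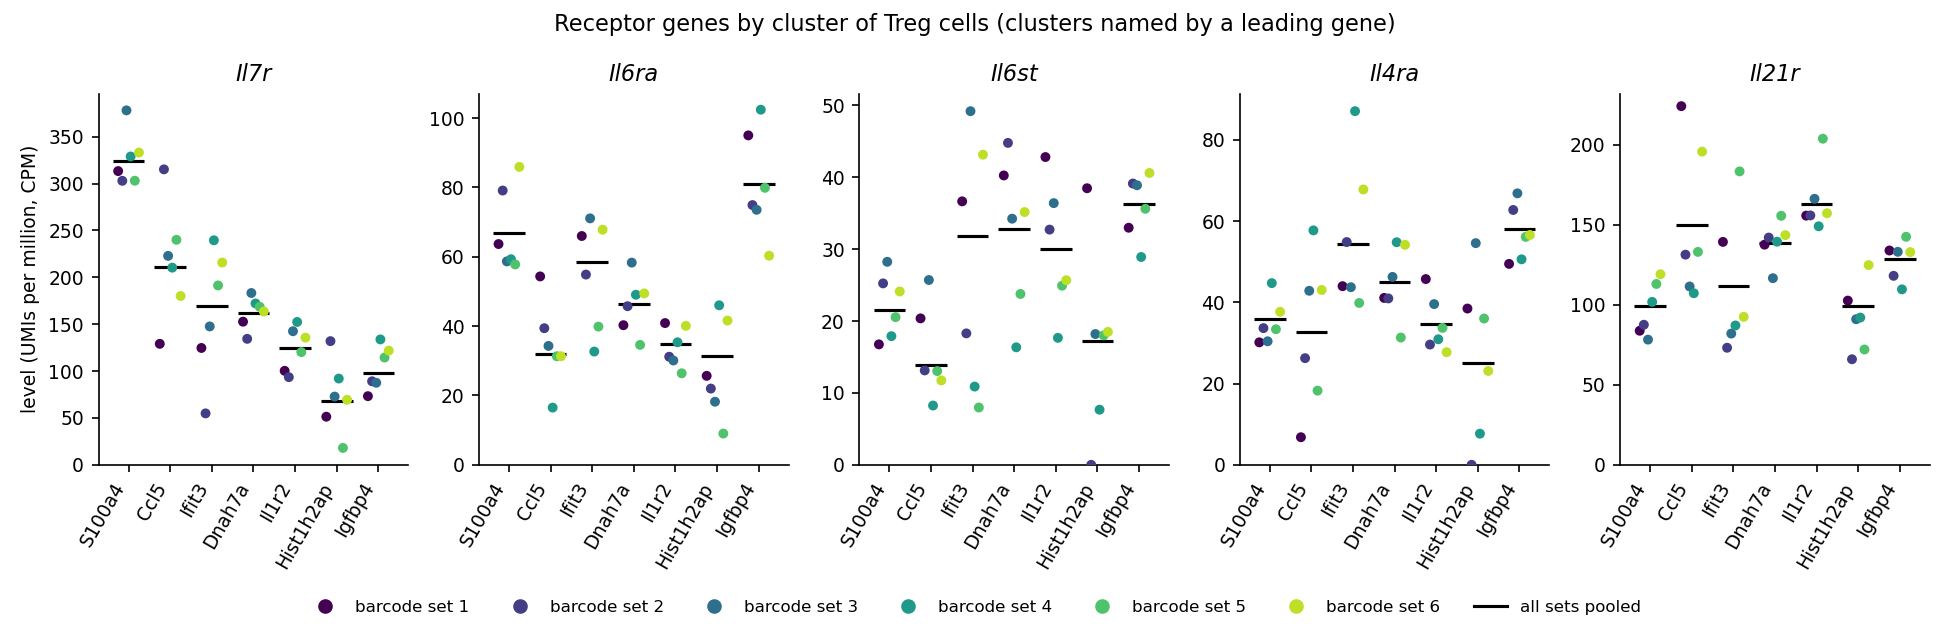
Level of each receptor gene (y axis, UMIs per 1000000, one scale per gene) by cluster of Treg cells (x axis, named by a leading gene); points are barcode sets and bars the pooled value. Il7r in the S100a4 cluster lies at 303 to 378 CPM against 73.2 to 134 CPM in the Igfbp4 cluster, while Il6ra is highest in the Igfbp4 cluster.

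Il21r followed a different order from Il7r, although both partner with the common gamma chain. It was at 99.3 CPM (89.8 to 110; 78.2 to 119 over the sets) in the S100a4 cluster and highest in the Il1r2 cluster, at 163 CPM (152 to 175; 149 to 204 over the sets). The sets of these 2 clusters did not overlap, and Il21r was called lower in the S100a4 cluster than in the Il1r2 cluster, with a log2 ratio of -0.71 (-0.89 to -0.54). The Igfbp4 cluster stood between them at 129 CPM (110 to 142 over the sets). Against the Igfbp4 cluster neither was called, with log2 ratios of -0.37 for the S100a4 and 0.34 for the Il1r2 cluster. Against the Ccl5 cluster (150 CPM) the S100a4 cluster was at -0.59 (-0.85 to -0.33), just past the limit, where 2.66% of 5117 genes were called lower. Clusters from 3 other seeds gave -0.57, -0.47 and -0.55, under the limit.

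Il6ra, the IL-6 binding chain, was lowest among the 4 clusters of over 1000 cells in the Il1r2 cluster and highest in the Igfbp4 cluster. The Il1r2 cluster had 40.9, 31.2, 30.1, 35.3, 26.4 and 40.1 CPM in sets 1 to 6, pooled 35.0 (29.9 to 40.6). The Igfbp4 cluster had 94.999, 74.9, 73.5, 102, 79.9 and 60.3 CPM, pooled 81.0 (74.5 to 87.8). No set of the Il1r2 cluster reached a set of the Igfbp4 cluster, and the log2 ratio was -1.21 (-1.47 to -0.96). Among 7267 genes of this comparison, 14.9% were called higher and 3.39% lower. Il6ra was called lower against the Igfbp4 cluster also in the Ccl5 cluster (31.9 CPM, -1.34, from 39 UMIs) and in the Dnah7a cluster (46.4 CPM, -0.80). The shares of all genes called lower were 2.72% in the Ccl5 and 1.94% in the Dnah7a comparison, and those called higher 11.1% and 8.08%. The Hist1h2ap cluster, at 31.4 CPM from 20 UMIs, was called lower as well (-1.36, with 15.7% of genes called higher and 4.34% lower).

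In the S100a4 cluster Il6ra was not called against the Igfbp4 cluster. It had 67.0 CPM (59.2 to 75.5; 57.8 to 85.9 over the sets), a log2 ratio of -0.27 against the Igfbp4 cluster that was negative in 4 of 6 sets. Against the Il1r2 cluster Il6ra was called higher in the S100a4 cluster, at 0.94 (0.65 to 1.22), and against the Ccl5 cluster at 1.07 (0.58 to 1.59), where 2.29% of genes were called higher. Il7r and Il6ra were thus both higher in the S100a4 than in the Il1r2 cluster, whereas Il21r was lower.

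Il6st and Il4ra were highest in the Igfbp4 cluster. Il6st was at 16.8, 25.2, 28.2, 17.9, 20.5 and 24.1 CPM in sets 1 to 6 of the S100a4 cluster, against 33.0, 39.1, 38.9, 28.9, 35.6 and 40.6 CPM in the Igfbp4 cluster. The sets did not overlap, the pooled levels were 21.6 and 36.3 CPM, and the log2 ratio of the S100a4 over the Igfbp4 cluster was -0.75 (-1.12 to -0.40). In the Ccl5 cluster Il6st was at 13.9 CPM (8.11 to 22.3), which rests on 17 UMIs, 1 to 5 in each set, and was called lower at -1.38 (-2.19 to -0.68). That ratio was -0.84 at a clustering resolution of 1.2. Against the Il1r2 cluster the Ccl5 cluster was at -1.11, but at -0.47, under the limit, at that resolution. Il6st in the Il1r2 cluster (30.03 CPM, -0.27) and the Dnah7a cluster (32.8 CPM, -0.15) was not called against the Igfbp4 cluster. The 2 chains of the IL-6 receptor thus did not take the same order over the clusters: the Il1r2 cluster was among the lowest for Il6ra and near the Igfbp4 cluster for Il6st, and the S100a4 cluster the reverse.

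Il4ra was called lower in the S100a4 cluster, at 35.9 CPM (30.2 to 44.7 over the sets, log2 ratio -0.69), and in the Il1r2 cluster, at 34.8 CPM (27.7 to 45.7 over the sets, -0.74), than in the Igfbp4 cluster. The Igfbp4 cluster had 58.0 CPM (52.5 to 63.8; 49.5 to 66.9 over the sets). Neither cluster had a set that reached the Igfbp4 range. Il4ra in the Hist1h2ap cluster (25.2 CPM, 16 UMIs) was called lower too, at -1.20. In the interferon-response cluster led by Ifit3 (300 cells), none of the 5 genes was called against the Igfbp4 cluster, where 4.73% of all genes were called higher and 0.78% lower. Its Il7r sets ran from 54.9 to 239 CPM.

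A score from resting to activated cells gave a second view that does not depend on cluster borders. It is the mean of 24 activated markers minus the mean of 11 resting markers in cells thinned to 1000 UMIs, contains none of the 5 genes, and was divided into tertiles within each set. The upper tertile held 3413 cells (8032802 UMIs, median 1978 per cell) and the lower 3417 (8737324 UMIs, median 2410), and 305 shallower cells were left out. Tertiles are ranges of the score rather than types of cell, and 22.1% of cells (2260) scored within 0.05 of a border. Of 8199 genes measured, 6.51% were called higher and 1.12% lower in the upper tertile, and the median gene was at 0.17 on the log2 scale. Of the 5 receptor genes, 0 were called higher and 1 lower. With the size limit taken relative to the median gene the member counts stayed at 0 and 1, and 4.18% of all genes were then called higher and 1.76% lower. Without the limit on size, 22.5% of all genes were higher and 4.44% lower in 6 of 6 sets, against 2 of 5 members each way.

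Il6ra was the member called. It was at 44.8, 53.0, 44.4, 36.0, 31.0 and 49.5 CPM in the upper tertile of sets 1 to 6, against 89.3, 71.3, 62.4, 76.7, 67.8 and 64.3 CPM in the lower tertile. The ranges did not overlap. Pooled, Il6ra was at 43.1 CPM (38.7 to 47.9) and 72.4 CPM (66.9 to 78.3), a log2 ratio of -0.75 (-0.94 to -0.56), or -0.92 relative to the median gene. It passed the 1.5-fold limit in neither the thinned counts (-0.52) nor a score of the activated markers alone (-0.30).

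Il7r went the other way. It was at 163, 185, 214, 219, 186 and 196 CPM in the upper tertile of sets 1 to 6, against 99.4, 106, 117, 158, 160 and 151 CPM in the lower. No lower tertile reached an upper one. The pooled levels were 193 CPM (184 to 203) and 131 CPM (123 to 138), a log2 ratio of 0.57 (0.46 to 0.68) that was positive in 6 of 6 sets and lay just under 1.5-fold, at 1.48-fold. Relative to the median gene it was 0.39. In 20 other random thinnings the ratio of Il7r ran from 0.43 to 0.57, with a median of 0.48. All 6 sets shared its direction in 17 of those 20. The ratio was 0.76 with the activated markers alone, past the limit, and -0.0091 with the resting markers alone. The number of Il7r UMIs per Il6ra UMI ran with the score: 1.80 (1.63 to 1.99) in the lower, 3.11 (2.78 to 3.47) in the middle and 4.49 (3.99 to 5.06) in the upper tertile, a measure in which the totals cancel.

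The other members had smaller ratios. Il4ra was at 40.1 CPM in the upper and 50.2 CPM in the lower tertile (-0.33, -0.54 to -0.12), negative in 6 of 6 sets and not called. Il6st was at 24.9 and 33.5 CPM in the upper and lower tertile (-0.43, -0.70 to -0.17), negative in 5 of 6 sets, and at 0.033 with the resting markers alone. Il21r was at 141 and 124 CPM (0.19, 0.07 to 0.31), positive in 6 of 6 sets, and at 0.014 relative to the median gene. It had that agreement between sets in 3 of 20 other random thinnings, against 20 of 20 for Il6ra.

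The summed B cell markers were at 55.4 CPM in the upper tertile (41.2 to 80.6 over the sets) and 36.9 CPM in the lower (28.5 to 52.6), and the summed myeloid markers at 20.2 and 13.7 CPM. Without cells holding UMIs of other types and the deepest cells the tertile ratios were 0.57 for Il7r, -0.80 for Il6ra, -0.48 for Il6st, -0.36 for Il4ra and 0.094 (-0.04 to 0.23) for Il21r. Within single clusters the tertile ratio of Il7r was 0.83 (0.45 to 1.24) in the Il1r2 cluster, 0.16 (-0.05 to 0.37) in the S100a4 cluster, 0.17 (-0.08 to 0.42) in the Dnah7a cluster and -0.10 (-0.56 to 0.33) in the Igfbp4 cluster. For Il6ra it was -0.72 (-1.17 to -0.27) in the S100a4 cluster, -0.50 (-1.07 to 0.11) in the Il1r2 cluster, 0.028 (-0.43 to 0.49) in the Dnah7a cluster and 0.046 (-0.43 to 0.49) in the Igfbp4 cluster. The Igfbp4 cluster made up 5.83% of the upper and 53.5% of the lower tertile.

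**Figure D3:**
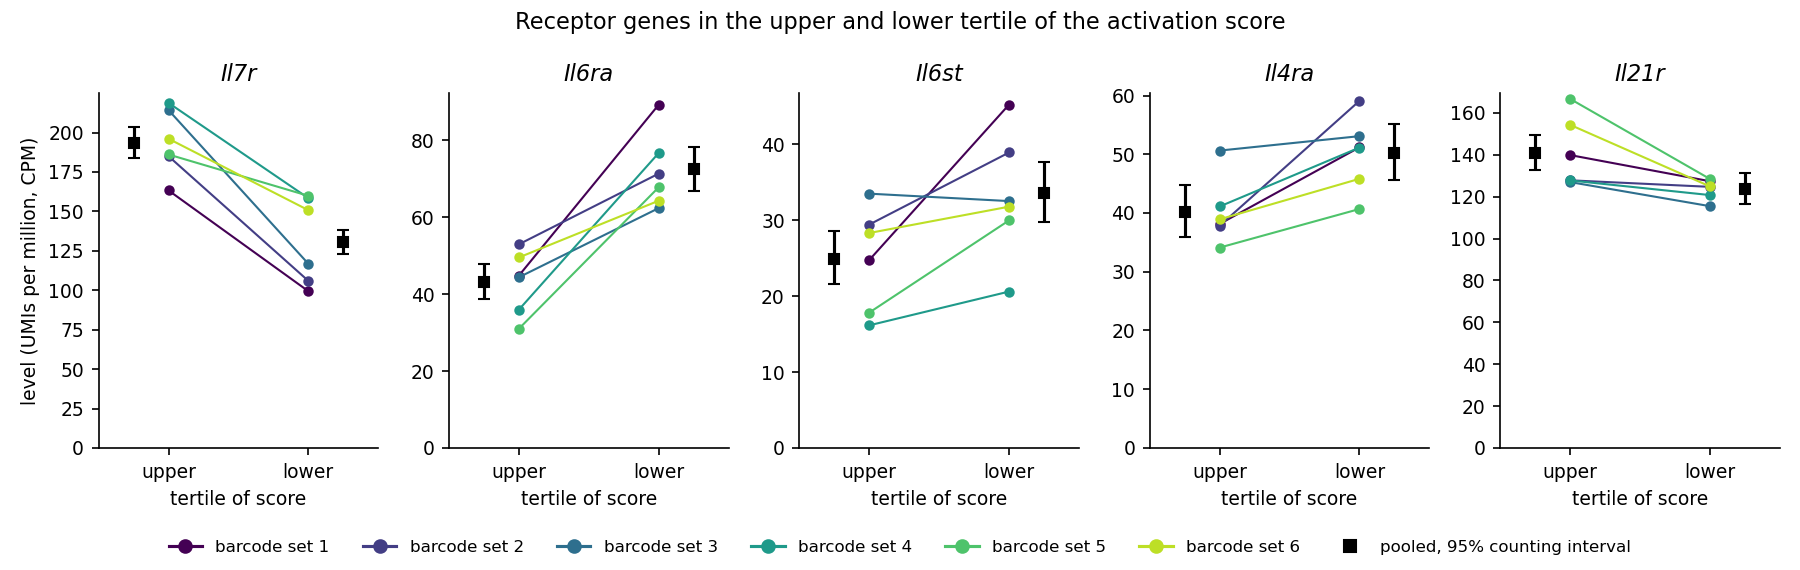
Level of each receptor gene (y axis, UMIs per 1000000) in the upper and lower tertile of the activation score; lines join the tertiles of a barcode set and squares are pooled values with 95% counting intervals. Upper and lower tertile values of Il6ra (31.0 to 53.0 and 62.4 to 89.3 CPM) do not overlap, nor do those of Il7r (163 to 219 and 99.4 to 160 CPM), in opposite directions.

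Cell states set by a few marker UMIs were compared with the remaining Treg cells, list by list. As the states are small, the 0.5 UMIs added bear on the shares of genes called: without them 5.95% were called higher and 3.07% lower in the tissue effector state, 1.56% and 1.46% in the Ccl5 and cytotoxic state, and 3.56% and 1.90% in the T cell receptor response state. The tissue effector state (611 cells with at least 3 UMIs over S100a4, S100a6, Ccr2, Cxcr6 and Lgals3) had Il7r at 223, 283, 278, 328, 242 and 222 CPM in sets 1 to 6, against 128, 129, 154, 182, 171 and 169 CPM in the remaining cells. The values did not overlap, and Il7r was called higher at 0.77 (0.63 to 0.92), where 7.24% of 8982 genes were called higher and 1.91% lower. Il21r was called lower, at 87.3 against 136 CPM (-0.64, -0.89 to -0.40), but without set 4 it was at -0.48, under the limit. Il4ra, at 24.2 against 45.9 CPM (-0.92), was lower in 5 of 6 sets and so not called. Unlike in the S100a4 cluster, Il6ra was below the remaining cells, at 39.4 against 57.8 CPM (-0.55, -0.94 to -0.19). It was lower in 5 of 6 sets and not called. Il6st, at 18.2 against 31.1 CPM (-0.77, -1.35 to -0.25) from 30 UMIs, was lower in 4 of 6 sets, or 5 of 6 in plain CPM, and not called.

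The Ccl5 and cytotoxic state (660 cells, with Ccl5, Nkg7, Gzmb, Gzmk, Cxcr3 or Eomes) had little RNA for either IL-6 receptor chain. Il6ra was at 24.6, 21.1, 16.5, 32.3, 21.97 and 25.8 CPM in sets 1 to 6, against 63.8, 60.4, 61.6, 58.6, 49.8 and 56.3 CPM in the remaining cells. Every set of the state lay below every set of the remaining cells, and Il6ra was called lower at -1.28 (-1.80 to -0.80). With the state limited to at most 5% of cells it was at -1.90 (-2.85 to -1.09). Il6st was also called lower, at 15.5 against 31.2 CPM (-1.01, -1.68 to -0.41), although it rests on 23 UMIs in the state. In this comparison 0.601% of all genes were called lower and 2.72% higher. Il7r (0.21), Il4ra (-0.31) and Il21r (0.14) were not called.

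In the T cell receptor response state (662 cells, from Nr4a1, Egr2, Tnfrsf9 and similar genes), Il6ra was called lower, at 35.0 against 58.1 CPM (-0.73, -1.15 to -0.35), with 1.05% of all genes called lower and 4.51% higher. The stricter limit of at most 5% of cells gave -0.56, just under the limit. Il21r was at 172 CPM against 130 CPM (0.40, 0.22 to 0.58), positive in 6 of 6 sets and not called, but past the limit at 0.62 (0.35 to 0.88) under the stricter limit on cells. Il7r was at 151 and 163 CPM (-0.11) in the state and in the remaining cells.

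The resting and homing state (470 cells, from Ccr7, Lef1, Satb1 and similar genes) had Il6ra at 124, 57.8, 77.7, 103, 102 and 52.3 CPM in sets 1 to 6, against 58.4, 59.0, 58.3, 54.5, 44.7 and 54.3 CPM in the remaining cells. The pooled levels were 87.0 and 55.0 CPM (0.66, 0.37 to 0.94), but the state was lower in sets 2 and 6. These sets turned positive through the 0.5 UMIs added, so the sets did not share a direction in plain CPM. The ratio was 0.52 without set 1, 0.58 without set 5 and 0.47 without cells holding UMIs of other types or the deepest cells. Of all genes 1.63% were called higher and 4.30% lower, and 0.98% and 7.13% with no UMIs added. Il7r, at 110 against 165 CPM (-0.58, -0.83 to -0.34), was negative in 6 of 6 sets and just under the limit. The median gene of this comparison was at -0.16.

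Helios, the product of Ikzf2, marks most Treg cells that arise in the thymus. With Ikzf2 at 1021.6 CPM in Treg cells, a thinned cell that expresses it can hold 0 of its UMIs by sampling alone. Of the thinned cells, 41.2% held 0, and a cell at 0 is not shown to lack Ikzf2 RNA. The cells below are therefore grouped by count, and their origin was not tested. The 4226 cells with 0 Ikzf2 UMIs had Il6ra at 74.5, 64.3, 64.0, 76.6, 64.0 and 62.3 CPM in sets 1 to 6, against 37.1, 45.8, 43.8, 37.6, 33.5 and 47.8 CPM in the 3122 cells with at least 2. The sets did not overlap, and Il6ra was called higher at 0.74 (0.53 to 0.94), where 0.566% of 8302 genes were called higher and 3.05% lower. Il7r was at 140 against 196 CPM (-0.48, -0.59 to -0.37), negative in 6 of 6 sets and not called, and Il4ra at 49.4 against 40.7 CPM (0.28, 0.07 to 0.50). The median depth before thinning was 2383 UMIs in the cells at 0 and 1844 in those with at least 2. Of the cells at 0, 25.5% lay in the upper and 43.3% in the lower tertile of the score. The part of depth and of the score in these ratios was not tested.

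No member was called in the other states described. In the Gpr83 and Lrrc32 state (915 cells) 1.44% of all genes were called higher and 1.22% lower, and Il7r was at 128 against 165 CPM (-0.36, negative in 6 of 6 sets). For the interferon-response state (605 cells) these shares were 1.94% and 0.456%, and the 5 ratios lay between -0.24 and 0.14. The follicular state (186 cells, 8.87% and 0.523%) had ratios from -0.60 to 0.43 with wide intervals. In the cycling state (90 cells, median 6356 UMIs, 9.73% and 2.79%), Il7r was at 75.5 against 164 CPM (-1.12, -1.56 to -0.72) but lower in 5 of 6 sets only. Il4ra was at 27.7 against 45.0 CPM there (-0.70, from 18 UMIs), lower in 6 of 6 sets in plain CPM and in 3 of 6 with 0.5 UMIs added. With none added, 2.35% of genes were called higher and 3.69% lower in the follicular state and 6.13% and 7.19% in the cycling state. States can share cells: 93 cells were in both the tissue effector and the Ccl5 and cytotoxic state.

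**Figure D4:**
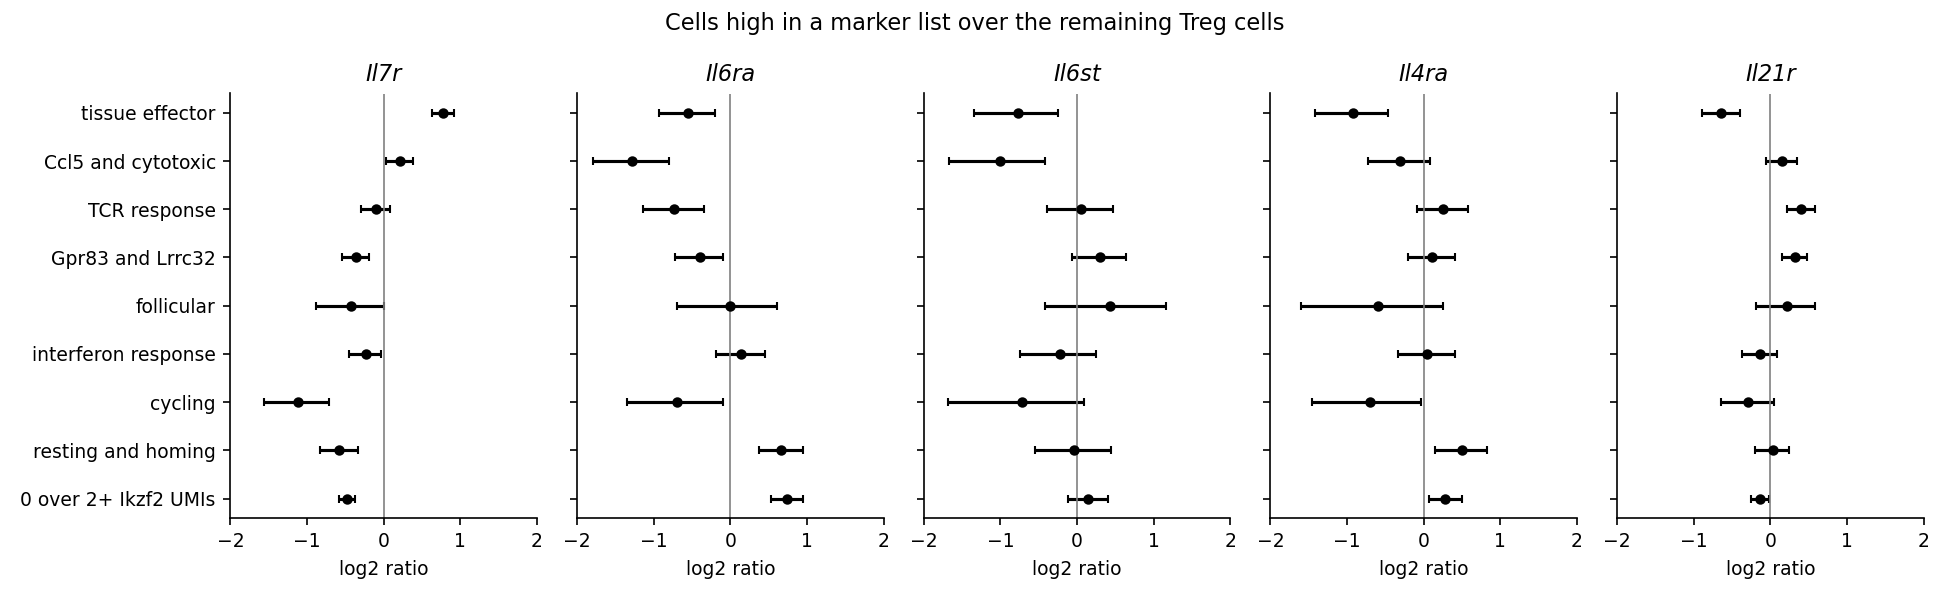
Log2 ratio (x axis) of each receptor gene in cells high in a marker list over the remaining Treg cells (y axis, states), with 95% counting intervals; the last row sets cells with 0 Ikzf2 UMIs over those with at least 2. Il7r is at 0.77 in the tissue effector state, and Il6ra runs from -1.28 in the Ccl5 and cytotoxic state to 0.74 in that last row.

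Receptor chains that signal together were found in the same thinned cell at 0.98 to 1.19 times the product of their shares. At this depth the counts of such cells are small because each RNA is detected in few cells. Il6ra and Il6st were both found in 19 of 10246 cells (0.185%, exact binomial interval 0.112 to 0.289%), where the product of their shares gives 15.9 cells. Their ratio of 1.19 ran from 0.57 to 2.58 over the 6 sets. Il7r and Il2rg were found together in 487 cells, where the product gives 449, Il21r and Il2rg in 382 (product 351), and Il4ra and Il2rg in 129 (product 132). Il7r and Il21r fell short of the product, with 168 cells against 198, a ratio of 0.85 that ran from 0.72 to 0.99 over the 6 sets. Pairs of the 5 genes that do not signal together ran from 0.83 (Il7r and Il4ra) to 1.35 (Il6st and Il4ra). The signalling pairs lay within that range.

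Other genes of these pathways were taken from lists and are given for the upper over the lower tertile, where 6.51% of all genes were called higher and 1.12% lower. Of 12 shared and partner chains, 7 had at least 100 UMIs. Crlf2, the TSLP receptor chain that pairs with the Il7r product, was called higher, at 137 against 80.3 CPM (0.77, 0.63 to 0.91), and 0 were lower. Il9r was at 1.72 but positive in 5 of 6 sets, the IL-2 receptor alpha chain gene Il2ra at -0.36 and Il2rg at 0.24. The median of the 7 was 0.22, beside 0.17 for all genes.

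Among 11 JAK and STAT genes, 0 were called in either direction, with a median of 0.12. Jak3, the kinase bound to the common gamma chain, was at 0.53, Stat5a, which IL-7 activates, at 0.45, Jak2 at 0.42 and Tyk2 at 0.30. Of the 14 inhibitors and shedding enzymes with enough UMIs (median 0.14), Adam17, a protease that sheds the IL-6 receptor, was called higher (18.3 against 10.1 CPM, 0.86). Socs3, an inhibitor of gp130 signalling, was called lower (60.5 against 100.1 CPM, -0.73, -0.89 to -0.57). Pias3, an inhibitor of STAT3, was at 0.72 in 5 of 6 sets and Socs6 at 0.49.

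Of 9 known regulators of Il7r (median 0.18), the repressor gene Gfi1 was called higher (22.3 against 14.6 CPM, 0.61) and Foxp1, which competes with Foxo1 at Il7r, lower (131 against 213 CPM, -0.70, -0.81 to -0.59). Relative to the median gene Gfi1 was not called. Gabpb1, a subunit of the ETS factor GABP, was at 0.57 and Runx3 at 0.51. Of 10 target genes of these cytokines (median 0.69), 4 were called higher and 1 lower. Maf was at 218 against 59.9 CPM (1.87), Batf at 190 against 78.4 CPM (1.28), the Th2 factor gene Gata3 at 185 against 85.3 CPM (1.11), and Junb was at 0.67. Relative to the median gene Junb was not called. The survival gene Bcl2, which IL-7 maintains, was lower, at 250.35 against 471 CPM (-0.91, -0.99 to -0.83).

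Of 11 ligand genes, 1 had enough UMIs, Osm, at 14.6 against 17.7 CPM (-0.28). Il7, Il4, Il21 and Lif had fewer than 100 UMIs over both tertiles. Of 17 other cytokine receptor genes (median 0.24), 6 were called higher and 1 lower. The decoy receptor gene Il1r2 (2.01), the IL-18 receptor gene Il18rap (1.74) and the IL-33 receptor gene Il1rl1 (1.16) were higher, together with Il12rb1, Il18r1 and Il10ra (0.64, not called relative to the median gene), and the interferon-gamma receptor gene Ifngr2 was lower (-0.98).

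The genes whose levels were most like each receptor gene over 41 units (7 clusters by 6 barcode sets, with at least 50000 UMIs) were found among 4847 genes by Pearson's r of log2(CPM + 10). These units share libraries and clusters, so r is a description. For Il7r they were Hcst (0.80), which encodes the adaptor DAP10, Klk8 (0.79) and Asxl2 (0.79). For Il6ra they included Rpl13a (0.77) and Pik3ip1 (0.74), and for Il6st Rpl36a (0.70); Rpl13a and Rpl36a are ribosomal protein genes. Evl (0.65), Ssh2 (0.61) and Gtf2i (0.60) were nearest to Il4ra, and Spint2 (0.67), Slc26a2 (0.65) and Izumo1r (0.64) to Il21r. Between the 5 receptor genes r ran from -0.23 for Il4ra and Il21r, the neighbours on chromosome 7, to 0.40 for Il6ra and Il6st. For Il7r and Il6ra, which went opposite ways between the tertiles, r was 0.31.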

How the data were processed

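Single EGFP-positive splenic Treg cells of 6 samples were profiled with 10x Chromium 3′ v2 chemistry, per the labels. The authors deposited raw UMI counts per gene and cell and a second table in natural log units. The latter held 10464 cells and equalled ln(1 + 10000 × count / cell total) in the 207 rows checked; its cells served as an alternative selection. FastQC, cutadapt, HISAT2, Cell Ranger, Seurat and mm10 are named, per the submitters' processing notes, without versions or roles. The protocols also describe bulk RNA extraction, and how that applies here is not stated. The filter of 200 genes or more and less than 10% mitochondrial UMIs left 10680 cells; those with at least 3 UMIs over 2 B cell or myeloid markers or over 5% erythroid UMIs were left out. No doublet caller was run; a stricter selection is among the alternatives. Levels are pooled UMIs per 1000000 with exact Poisson intervals, ratios have exact conditional binomial intervals, and set ratios had 0.5 UMIs added. A gene was called at 1.5-fold, 6 of 6 sets in 1 direction and 100 UMIs; with no group per cell there was no test, and the edgeR comparison of cKO with WT planned for cells tied to a sample was not run. A cell was in a state when it held k UMIs of its list after thinning, k being the smallest number from 2 at which at most 10% of cells qualify. A state of Th17 markers held 18 cells and is not described. Clusters used 2000 variable genes, 30 components, 15 neighbours and Leiden resolution 0.8 (scanpy 1.11.5, python-igraph 0.11.9, scikit-learn 1.9.0, seed 1; Python 3.11.15, numpy 2.4.6, scipy 1.17.1, pandas 2.3.3, anndata 0.12.19, matplotlib 3.10.9). The code that calls genes was tested on simulated data. Named genes are the 5 receptor genes, the 4 list members with the largest ratio in each list, and the 3 most similar genes of each receptor gene, of which some are not reported here; as called members of their lists, Junb, Il10ra, Il12rb1 and Il18r1 are named too, a choice made on their values. Members, lists and rules were chosen with earlier results of these data known. Alternatives covered the cells kept, thinning, scaling totals, score markers, state size, call rule, clustering and leaving out each barcode set.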

Additional observations from a re-analysis of the deposited data

Results flagged for a closer look

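The cells left out of the comparisons also held UMIs of the receptor genes, above the limit that a count of 0 allows. In the 96 cells with B cell markers, Il21r was at 164.1 CPM (39 UMIs), Il4ra at 75.7 CPM (18 UMIs) and Il7r at 42.1 CPM (10 UMIs). These cells also held T cell RNA, with Cd3e at 349 CPM. In the 29 cells with myeloid markers, Il6ra was at 72.5 CPM (8 UMIs), Il7r at 63.5 CPM (7 UMIs), Il6st at 54.4 CPM (6 UMIs), Il21r at 54.4 CPM (6 UMIs) and Il4ra at 45.3 CPM (5 UMIs). The source of these UMIs was not tested. Over the 6 barcode sets, no level or tertile ratio of the 5 genes had a set that stood apart by Dixon's test (0 of 10). That test looks for 1 extreme set and cannot show that the sets are alike. The counting intervals of Il7r in set 1 (122.5 to 143.6 CPM) and set 4 (182.0 to 209.1 CPM) did not overlap.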

How the results depend on the processing

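No genotype was compared, so no result has a biological error, and the depth limits Il6st and the small clusters most. No paired analysis was possible because the columns carry no replicate number. For the tertile ratios, the resting markers alone left no clear difference in Il7r (-0.0091, -0.12 to 0.10) and Il6st (0.033, -0.23 to 0.29). The activated markers alone gave 0.76 for Il7r, -0.30 for Il6ra and 0.060 for Il21r. Il7r was at 0.37 with thinning to 500 UMIs, at its lowest 0.43 over 20 other thinnings, at 0.41 with totals free of ribosomal and mitochondrial genes and at 0.39 relative to the median gene. Il21r was at 0.026 and 0.014 under the last 2 settings. Il6ra reached -0.98 over the other thinnings, and thinned counts gave -0.52 for Il6ra and -0.61 for Il4ra. The causes were not tested. Leaving out each set gave 0.51 to 0.64 for Il7r, -0.83 to -0.68 for Il6ra, -0.54 to -0.30 for Il6st, -0.38 to -0.26 for Il4ra and 0.15 to 0.21 for Il21r. Of all genes, 534 were called higher and 92 lower; the counts were 205 and 32 at 2-fold, 1128 and 144 without a minimum of UMIs, and 343 and 144 relative to the median gene. Levels with totals free of ribosomal and mitochondrial genes were 262 CPM for Il7r, 91.6 for Il6ra, 48.7 for Il6st, 71.9 for Il4ra and 215 for Il21r. Without 1282 cells with UMIs of other types or great depth, Il7r was at 169 CPM. Leaving out each set gave levels of 155.7 to 169.0 CPM for Il7r, 55.5 to 58.4 for Il6ra, 29.0 to 32.4 for Il6st, 43.0 to 45.8 for Il4ra and 130.0 to 134.9 for Il21r. The cluster alternatives and the calls with no UMIs added were chosen after seeing the data. Il7r in the S100a4 over the Igfbp4 cluster was at 1.58 at resolution 0.5 (1.65 to 1.80 without a set), and over the Il1r2 cluster at 1.15 with seed 3 (1.32 to 1.45 without a set). Il21r in the S100a4 over the Il1r2 cluster was at -0.94 at resolution 1.2 (-0.79 to -0.67 without a set). Without a set, Il6ra in the Il1r2 over the Igfbp4 cluster ran from -1.31 to -1.16, Il6st in the Ccl5 over the Igfbp4 cluster from -1.51 to -1.28 (-1.24 to -0.77 over the other clusterings) and Il4ra in the S100a4 over the Igfbp4 cluster from -0.82 to -0.60. At resolution 0.5, which gave the -0.77, the Ccl5 cluster was not separate.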
